A study of Mus musculus with 6 samples.

Results

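This account covers 10 forkhead transcription factor genes in bone marrow LSK cells: Foxo1, Foxo3, Foxo4, Foxc1, Foxc2, Foxf1, Foxp1, Foxp4, Foxj3 and Foxm1. They are a list of names, drawn up with earlier results of these data in view, and all 10 were measured among 43 forkhead genes and 22180 genes in all. LSK cells lack mature lineage markers and carry Sca-1 and Kit, a gate that holds blood stem cells and early progenitors. Both groups came from C57Bl6 mice with the inducible transgene Tg(Cdh5-Cre/ERT2) and a YFP reporter at Rosa 26, so the Cre acts where the promoter of Cdh5, the VE-cadherin gene of endothelium, is active. All were given tamoxifen 1, 2 and 3 days after birth and sampled at postnatal day 27. The groups differ in the sort alone, 3 arrays of YFP-positive and 3 of YFP-negative LSK cells. YFP marks cells in which the Cre has acted and their descendants. Whether replicates were separate animals is not stated, so p-values measure the spread of these samples alone, and that spread may be technical.

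Forkhead proteins bind DNA through a shared winged-helix domain. The Foxo members act below insulin and growth factor signals: the kinases AKT and SGK1 phosphorylate them, which sends them out of the nucleus, and in the nucleus they turn on genes of quiescence, stress defence and cell death, and protect blood stem cells. Foxc1, Foxc2 and Foxf1 are known for roles in blood vessel formation, and Foxc1 also in the stromal niche of the marrow. Foxp1 acts in early B cell development, and Foxm1 drives genes of the G2 and M phases.

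The values are log2 expression levels per probe, with array medians over all probes of 3.62 to 3.68 and a range of 1.53 to 13.7. A level near those medians cannot be told from background. Cdh5 was 11.3 to 11.8 in YFP-positive and 3.71 to 5.40 in YFP-negative arrays. Ptprc, which encodes the leukocyte protein CD45, was low in YFP-positive replicates 1 and 2 (6.52 and 6.95) and high in replicate 3 (9.52), which thus stands apart, against 9.23 to 9.37 in YFP-negative arrays. Kit was 6.56 to 7.06 against 7.57 to 7.96, and Ly6a, the gene of Sca-1, was not analysed here. Of 24 endothelial markers measured, 22 were higher in YFP-positive cells past the threshold, and the log2 of their summed levels was 13.8 to 14.4 against 10.1 to 10.8. Of 20 leukocyte markers 3 were lower past it, with summed levels of 11.2 and 11.5 in YFP-positive replicates 1 and 2, 13.3 in replicate 3, and 13.0 to 13.1 in YFP-negative arrays. By limma 0 of 15 neutrophil markers passed (2 before adjustment, 0 higher and 2 lower), and 11 differences lay above 0 and 4 below. Their summed levels were 13.5 to 14.7 against 12.5 to 14.5. In both groups these sums were highest in replicate 3, as were those of the macrophage markers. The summed levels of macrophage markers were 10.9 to 11.98 against 8.41 to 10.9 (2 of 14 rose, Vcam1 and Mertk). As a list the macrophage markers did not rise, with 7 differences above 0, 7 below and a median of 0.01. Megakaryocyte and erythroid markers had summed levels of 8.49 to 9.74 against 8.63 to 9.34 (0 of 11 passed, 1 unadjusted). Those of LSK gate and progenitor genes were 9.59 to 10.2 against 12.01 to 12.24 (10 of 14 fell). The brightest markers of each list differed by 0.57 (Erg) and 3.51 (Emcn) for endothelium, -0.41 (Lcp1) and -0.77 (Arhgdib) for leukocytes, 0.60 (S100a9) and 0.73 (S100a8) for neutrophils, 1.67 (Ly6c2) and 6.07 (Vcam1) for macrophages, -0.60 (Tfrc) and 0.42 (Pf4) for megakaryocytes and erythroid cells, and -2.29 (Cd34) and -3.2 (Myb) for progenitors. The part of these cell types in the forkhead values was not tested. In bulk samples, fewer cells of a type and less RNA per cell cannot be told apart.

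Foxo1 rose in YFP-positive LSK cells, 2.38-fold, and was the member past the threshold of limma's test (adjusted p under 0.05). The other 9 did not pass. Foxo3 and Foxp1 measured lower and Foxc1 higher in every YFP-positive array than in any YFP-negative array. Foxo4, Foxf1, Foxj3 and Foxm1 differed by less than 0.25 on the log2 scale. Over all genes 4.84% passed, 2.88% higher and 1.96% lower, and 1 gene of 10 is too few to set against those shares. The ranges of the groups did not overlap for 4 of the 10 (Foxo1, Foxo3, Foxc1 and Foxp1), where 22.7% of all genes had such ranges, 10.8% higher and 11.9% lower. Before adjustment, 5 of 10 members had a p under 0.05 (3 higher, 2 lower), against 17.2% of all genes. No member fell past the threshold with limma, nor with its trended and robust variance. The median difference of the 10 was -0.12, against -0.01 over all genes tested.

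**Figure D1:**
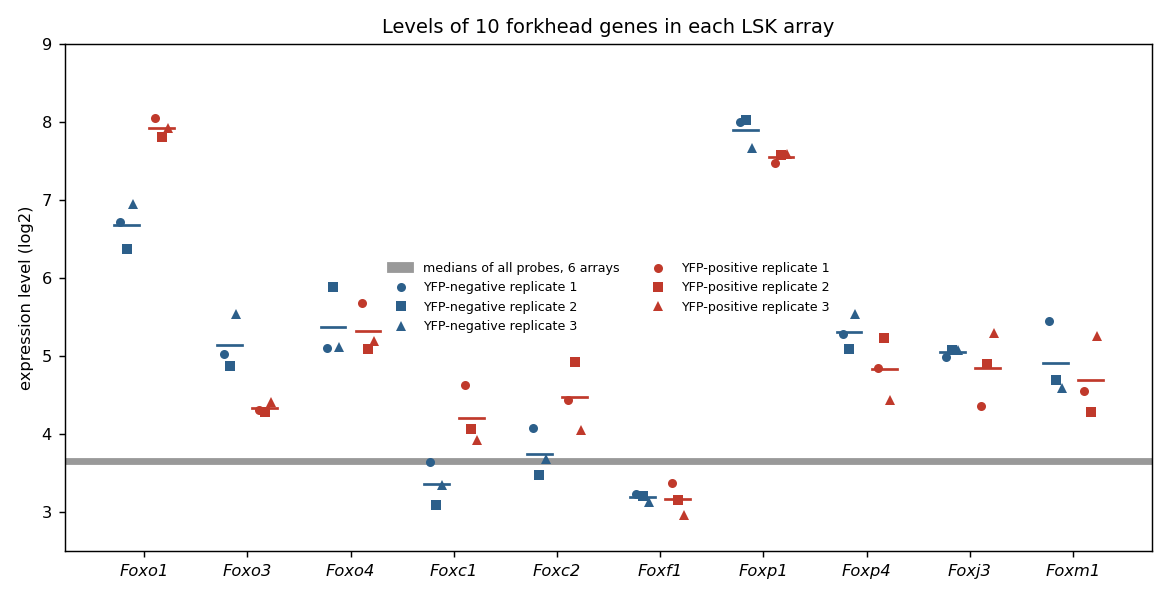
Expression levels (log2) of the 10 forkhead genes in each array, by gene; points are arrays, shaped by replicate, short lines are group means, and the grey band marks the array medians over all probes. The Foxo1 points of YFP-positive arrays (7.81 to 8.05) lie above those of YFP-negative arrays (6.37 to 6.95), while Foxf1 lies below the band in all 6 arrays. Levels of different genes come from different probes and are not comparable.

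Foxo1, which mediates insulin and growth factor signals and is prominent in endothelium and in lymphocytes, was read at 8.05, 7.81 and 7.92 in YFP-positive replicates 1, 2 and 3, and at 6.71, 6.37 and 6.95 in YFP-negative replicates 1, 2 and 3. All 3 YFP-positive arrays lay above all YFP-negative ones, and they were close to each other. The means were 7.93 ± 0.12 and 6.68 ± 0.29 (SD, n = 3 each), a difference of 1.25 ± 0.17 (SE, 95% interval 0.83 to 1.67, limma adjusted p = 0.0161). It ranked 443 of 22180 genes by p. When YFP-positive replicate 1 or YFP-negative replicate 1 was left out the call was lost (adjusted p = 0.0608 and 0.0643), and it held when any of the other 4 arrays was. A second, dimmer Foxo1 probe read 4.93, 5.01 and 5.60 against 4.95, 3.70 and 5.06, so its groups overlapped. Its difference was 0.61 ± 0.42 (limma adjusted p = 0.634 among all 41345 probes). With the mean of both probes the difference was 0.93 and did not pass (adjusted p = 0.141).

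Foxo3, the member best known for keeping blood stem cells quiescent, stood at 4.31, 4.28 and 4.41 in the YFP-positive arrays and at 5.03, 4.87 and 5.54 in the YFP-negative arrays. Every YFP-positive value was below every YFP-negative one. The difference was -0.82 ± 0.19 (95% interval -1.28 to -0.36) and did not pass (limma adjusted p = 0.0756, and 0.0653 to 0.193 over the alternatives). The log2 ratio of Foxo1 to Foxo3 within an array, a measure chosen after the values were seen, was 3.51 to 3.75 in YFP-positive and 1.41 to 1.68 in YFP-negative arrays. Its group means differed by 2.07, given as a description for the brighter Foxo1 probe. This combines the Foxo1 and Foxo3 differences already given and adds no separate support. Levels of different probes are not comparable, so the ratio does not show which gene is more abundant. A two-sided exact permutation test over the 20 splits of the arrays gave p = 0.1. That is the smallest value it can give, so this test cannot decide. Foxo4, the X-linked relative, measured 5.68, 5.08 and 5.20 against 5.10, 5.88 and 5.11, with groups that overlapped. Its difference was -0.04 ± 0.27 (95% interval -0.71 to 0.62), and the sign turned when YFP-positive replicate 2 or 3 or YFP-negative replicate 2 was left out.

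The sequences upstream of Foxo1 and Foxo3 are shown because these relatives measured in opposite directions. They are the 250 bases before the RefSeq start in build GRCm38.p6, Foxo1 at chr3:52268087-52268336 on the plus strand and Foxo3 at chr10:42276696-42276945 on the minus strand. No capitals appear because neither holds the forkhead motif described further on.
Foxo1: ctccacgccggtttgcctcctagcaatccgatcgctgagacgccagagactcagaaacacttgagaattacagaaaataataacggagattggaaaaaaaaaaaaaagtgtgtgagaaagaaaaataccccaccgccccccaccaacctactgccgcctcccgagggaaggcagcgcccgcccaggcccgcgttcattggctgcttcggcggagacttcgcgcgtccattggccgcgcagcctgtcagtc
Foxo3: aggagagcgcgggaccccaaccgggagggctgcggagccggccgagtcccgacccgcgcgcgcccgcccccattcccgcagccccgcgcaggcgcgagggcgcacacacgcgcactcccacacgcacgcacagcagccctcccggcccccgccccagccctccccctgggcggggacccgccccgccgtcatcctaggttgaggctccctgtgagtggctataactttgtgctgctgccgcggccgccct
The G and C content is 56.0% for Foxo1 and 76.4% for Foxo3, against a median of 55.6% over 20611 promoters of the genes tested. The Foxo3 stretch is made largely of G and C, while the Foxo1 stretch holds a run of A. The content is 70.8% for Foxc1, which measured higher, and 80.4% for Foxj2, a forkhead gene described further on that rose. It is 45.2% to 74.0% over the starts of Foxp1, which measured lower. A link between base content and direction was not tested.

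The vascular members stayed low. Foxc1 read 4.63, 4.07 and 3.92 in YFP-positive and 3.64, 3.08 and 3.35 in YFP-negative arrays, without overlap, but the latter lie at or under the array medians. The difference was 0.85 ± 0.24 (95% interval 0.27 to 1.42, limma adjusted p = 0.123) and did not pass. Foxc2, its close relative, was at 4.44, 4.93 and 4.06 against 4.08, 3.47 and 3.68, with a slight overlap and a difference of 0.73 ± 0.27 (adjusted p = 0.229). Foxf1 was at 3.37, 3.16 and 2.96 against 3.23, 3.21 and 3.12. It lay below the median of every array, so no level of Foxf1 could be told from background. Foxc1 is also known to act in mesenchymal stroma. The markers of mesenchymal stroma had summed log2 levels of 8.41 to 8.96 in YFP-positive and 8.05 to 8.16 in YFP-negative arrays. By limma 0 of 17 passed (7 before adjustment, 5 higher and 2 lower), and their median difference was 0.10. Among them Cxcl12, the niche chemokine, measured 5.18, 6.82 and 7.63 against 4.25, 4.87 and 5.04, and Ebf3, a stromal transcription factor, 6.49, 6.36 and 5.38 against 5.35, 5.31 and 5.20. The part of stromal or endothelial RNA in the Foxc1 and Foxc2 levels was not tested.

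By gene order in RefSeq, Foxf1, Foxc2 and Foxl1 lie together on chromosome 8, with Mthfsd between Foxf1 and Foxc2, and Foxq1, Foxf2 and Foxc1 lie together on chromosome 13. Foxl1 differed by 0.32 ± 0.20, Foxq1 by 0.08 ± 0.13 and Foxf2 by 0.02 ± 0.11, and none of the 3 passed limma's test. Of these 6 forkhead genes, Foxc1 and Foxc2 had the largest differences.

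Foxp1, a repressor needed for the passage of early B cells, was among the brighter forkhead probes, at 7.48, 7.58 and 7.59 in YFP-positive arrays, and at 8.0, 8.03 and 7.67 in YFP-negative arrays. All YFP-positive values were lower, by a small margin to YFP-negative replicate 3. The difference was -0.35 ± 0.13 (1.27-fold lower, 95% interval 1.02 to 1.60, limma adjusted p = 0.254) and did not pass. Foxp4, a related repressor, measured 4.84, 5.22 and 4.44 against 5.28, 5.09 and 5.54, with overlap (-0.47 ± 0.23, adjusted p = 0.387). Foxj3 was at 4.36, 4.90 and 5.29 in YFP-positive arrays and at 4.98 to 5.08 in YFP-negative arrays, so YFP-positive values lay on both sides (-0.20 ± 0.24, adjusted p = 0.773).

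Foxm1, which activates genes of G2 and mitosis, read 4.55, 4.28 and 5.26 in YFP-positive and 5.45, 4.69 and 4.59 in YFP-negative arrays. The groups overlapped, with YFP-positive replicate 3 and YFP-negative replicate 1 as the highest. The difference was -0.21 ± 0.33 (95% interval -1.03 to 0.60, limma adjusted p = 0.832), and its sign turned when YFP-negative replicate 1 was left out. The interval reaches 2.04-fold lower. For Foxo4, Foxf1, Foxp1 and Foxj3 the 95% interval lay between -1 and 1, which held for 4 of the 10 members and for 72.7% of all genes tested.

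Among the other 33 forkhead genes measured, Foxj2, a paralog of Foxj3, rose and the remaining 32 did not pass. Foxj2 was at 8.33, 7.75 and 8.62 in YFP-positive and 6.85, 6.80 and 6.88 in YFP-negative arrays, 2.62-fold higher without overlap (1.39 ± 0.23, limma adjusted p = 0.0271). That call held when YFP-positive replicate 2 or 3 was left out, and was lost for any other array (adjusted p up to 0.101). Foxj2 also has a second probe, which spread widely in both groups (3.27 to 6.27 against 3.63 to 5.31). With the mean of both probes its difference was 0.79 and did not pass (adjusted p = 0.296). When every probe was tested on its own, the brighter Foxj2 probe did not pass either (limma adjusted p = 0.0585 among all 41345 probes). The brightest others were Foxn3 (0.20 ± 0.56), Foxk2 (-0.22 ± 0.24), Foxn2 (-0.27 ± 0.21) and Foxi1 (-0.02 ± 0.18), none of them past the threshold. The 33 genes had a median difference of 0.09. Of these, 30 had an interval between -1 and 1, and many lay near the array medians.

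**Figure D2:**
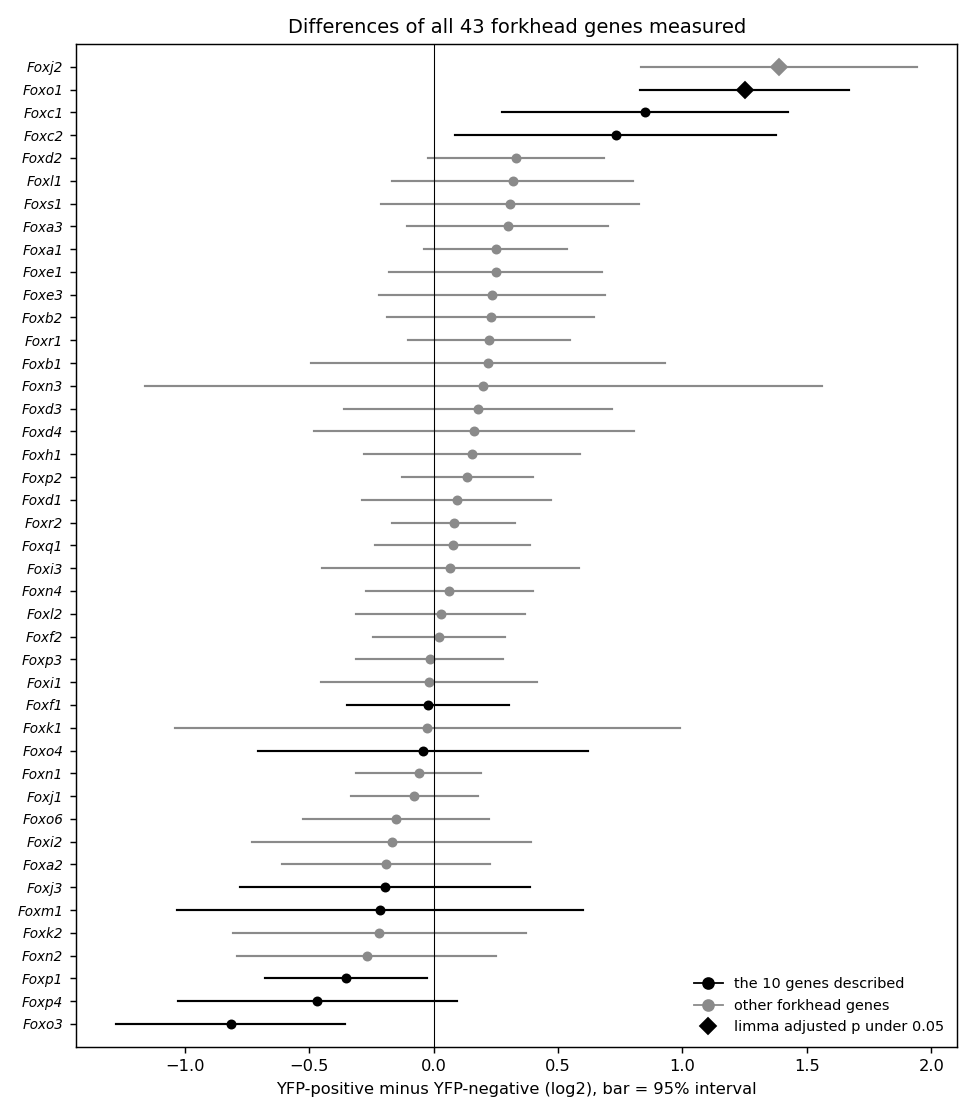
Difference of YFP-positive minus YFP-negative cells (log2) for all 43 forkhead genes measured, with 95% intervals from limma; black marks the 10 genes described, grey the other 33, and diamonds those with an adjusted p under 0.05. Foxo1 (1.25) and Foxj2 (1.39) are the diamonds, and Foxo3 (-0.82) has the lowest value.

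Of 35 measured genes that control Foxo proteins, 2 rose and 2 fell, 31 did not pass, and the median difference was -0.23. Before adjustment 3 were higher and 11 lower at a p under 0.05. Over all genes tested 4.84% passed, and 17.2% had an unadjusted p under 0.05. Insr, the insulin receptor, rose 5.16-fold, at 8.54, 9.26 and 8.46 in YFP-positive and 6.37, 6.28 and 6.50 in YFP-negative arrays (limma adjusted p = 0.00488). Sgk1, a kinase that phosphorylates Foxo proteins, rose 5.63-fold, at 8.81, 8.32 and 8.28 against 5.20, 5.88 and 6.85 (adjusted p = 0.0296). Both were higher in every YFP-positive array. Inpp5d, the leukocyte phosphatase SHIP1 that limits AKT activation, fell 2.95-fold (adjusted p = 0.0268), and Xpo1, the exporter that carries Foxo proteins out of the nucleus, fell 1.93-fold (adjusted p = 0.0436). With 1 array left out, Sgk1 passed for YFP-negative replicate 3, Inpp5d for YFP-positive replicate 2, Xpo1 for YFP-positive replicate 3, and Insr for any of the 6. For the other arrays the adjusted p reached 0.108, 0.0896 and 0.142 for Sgk1, Inpp5d and Xpo1. The list then had 1 gene past the threshold when replicate 1 of either group or YFP-negative replicate 2 was left out, and 2 genes otherwise. In the same comparison the median difference was 3.98 for endothelial markers and -1.50 for leukocyte markers. The part of endothelial or leukocyte RNA in the differences of the Foxo regulators was not tested.

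Of 50 measured genes described as Foxo targets, 5 rose, 2 fell and 43 did not pass, where 4.84% of all genes passed. The list was drawn up with earlier results of these data known, and its median difference was -0.03. Those that rose were S1pr1, a receptor for sphingosine-1-phosphate, Insr, Selenop, a selenium carrier, Txnip, an inhibitor of thioredoxin, and Camk2n1, an inhibitor of a calcium-dependent kinase. S1pr1 was at 7.87, 7.65 and 7.77 in YFP-positive and 5.12, 4.72 and 5.25 in YFP-negative arrays (6.67-fold, limma adjusted p = 0.00086). Il7r, the interleukin 7 receptor, fell from 5.09 to 5.71 in YFP-negative arrays to 2.90 to 3.09 in YFP-positive arrays, which is below the array medians and gives no fold (adjusted p = 0.0026). Atm, a kinase of the DNA damage response, fell 1.97-fold (adjusted p = 0.0204). Among classic targets in arrest and death, Cdkn1b measured -0.77 ± 0.44, Cdkn1a -0.05 ± 0.38 and Bcl2l11 -0.05 ± 0.35, none past the threshold. They, like Sod2 and Cat, were named after their values were seen. Sod2 (0.06 ± 0.44) and Cat (0.17 ± 0.17), enzymes that clear reactive oxygen, did not pass either. When YFP-negative replicate 2 was left out 4 genes passed, and Txnip did not (adjusted p = 0.0559). Camk2n1 did not pass when YFP-negative replicate 2 or replicate 1 of either group was left out (adjusted p up to 0.0609). Atm did not when YFP-positive replicate 1 or YFP-negative replicate 2 or 3 was (up to 0.084). The endothelial markers rose in the same comparison (median 3.98), and the part of endothelial RNA in these differences was not tested.

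The motif TGTTTAC, or GTAAACA on the other strand, is a core forkhead site. It was found in promoters (250 bases before to 50 after a RefSeq start) of 6 of the 38 Foxo targets with a promoter sequence, which is 13.0% of their 46 promoters, against 3.15% of 20611 promoters of the genes tested. None of the 8 promoters of the 6 members with a sequence (Foxo1, Foxo3, Foxc1, Foxp1, Foxp4 and Foxj3) held it. Of the targets with the motif, Txnip and Selenop rose, and Bcl2l11, Bbc3, Trim63 and Sesn1 did not pass. The windows around the motif, in capitals, are shown for 5 of them to set matched sequence beside unlike responses, on the plus strand of GRCm38.p6.
Txnip: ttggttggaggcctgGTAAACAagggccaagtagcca
Selenop: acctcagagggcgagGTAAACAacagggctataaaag
Bcl2l11: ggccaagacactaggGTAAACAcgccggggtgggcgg
Bbc3: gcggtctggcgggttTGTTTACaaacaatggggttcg
Trim63: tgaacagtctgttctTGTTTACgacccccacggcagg
They lie at chr3:96557821-96557857, chr15:3270938-3270974, chr2:128125796-128125832, chr7:16310079-16310115 and chr4:134314911-134314947 in that order. Txnip was at 11.7, 11.4 and 11.2 in YFP-positive and 10.1, 9.73 and 9.56 in YFP-negative arrays, 3.06-fold higher (limma adjusted p = 0.0122). Selenop was at 10.8, 10.8 and 10.3 against 8.51, 8.86 and 8.15, 4.37-fold higher (adjusted p = 0.00672). Neither gene's groups overlapped. Bcl2l11, Bbc3 and Trim63 differed by -0.05 ± 0.35, -0.31 ± 0.24 and 0.11 ± 0.13. Sesn1, whose window is not shown, differed by -0.75 ± 0.37, and its motif lies 23 bases after the start. The same letters thus stand in promoters of genes that rose and of genes that did not pass. A match is a description of sequence, not a measured binding site.

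**Figure D3:**
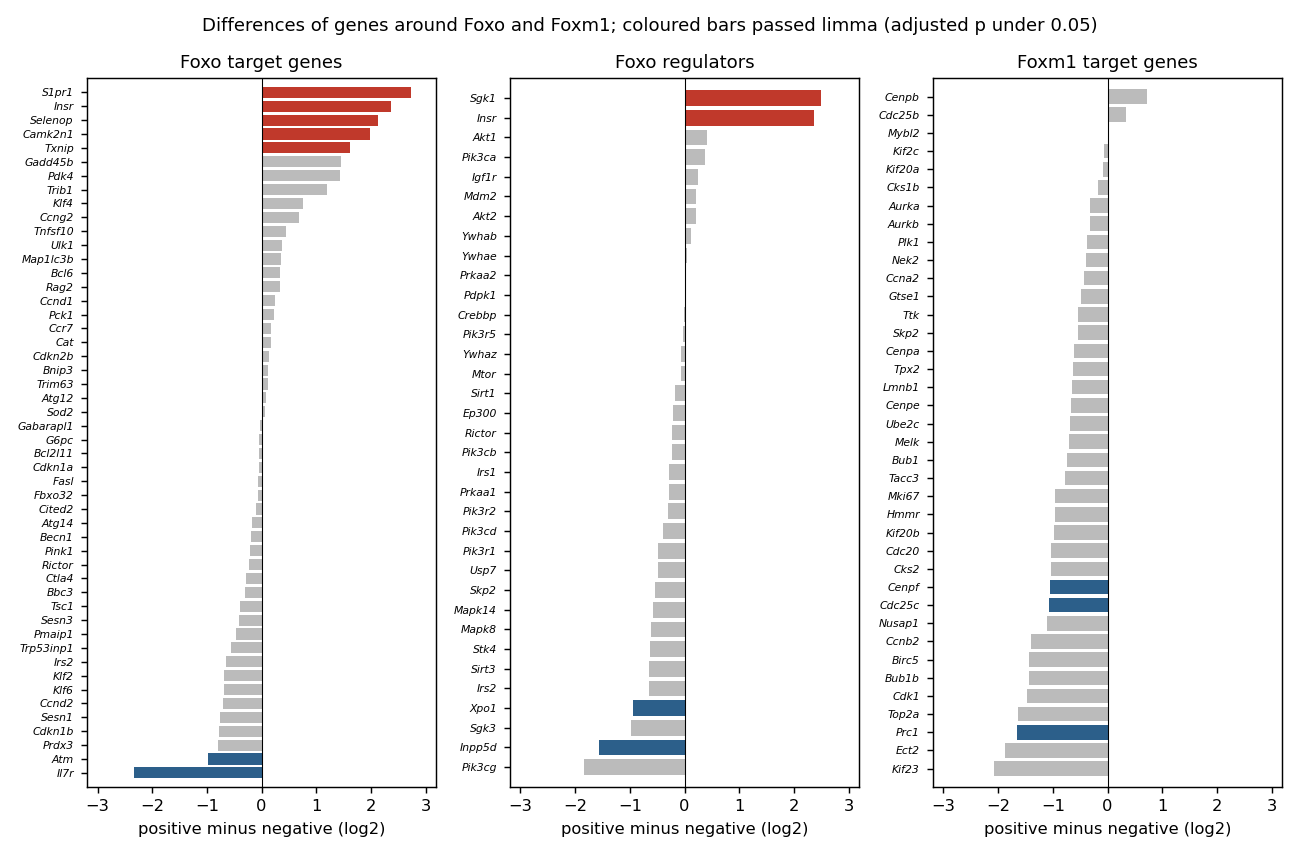
Difference of YFP-positive minus YFP-negative cells (log2) for each measured gene described as a Foxo target (50), a Foxo regulator (35) or a Foxm1 target (38); coloured bars passed limma's test at an adjusted p under 0.05, red higher and blue lower, and grey bars did not pass. S1pr1 and Il7r bound the Foxo targets, and 35 of the 38 Foxm1 targets lie below 0.

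Among 38 measured Foxm1 targets, genes of mitosis, 3 fell, none rose and 35 did not pass, with a median difference of -0.69. Of all genes tested 1.96% fell past the threshold. At an unadjusted p under 0.05, 1 target was higher and 15 were lower, against 17.2% of all genes in either direction. Cdc25c, a phosphatase that starts mitosis, was at 4.03, 4.17 and 4.37 in YFP-positive and 5.07, 5.18 and 5.51 in YFP-negative arrays (2.09-fold lower, limma adjusted p = 0.0207). Prc1, which bundles microtubules in cytokinesis, was at 4.74, 4.72 and 5.70 against 6.94, 6.63 and 6.53 (3.13-fold lower, adjusted p = 0.0357), and Cenpf, a centromere protein, fell 2.07-fold (adjusted p = 0.046). YFP-positive replicate 3 was the highest of the YFP-positive arrays for all 3 genes. Relative to the mean of YFP-negative arrays, the list's median was -0.08 there and -0.94 and -1.07 in replicates 1 and 2, while Foxm1 itself was 5.26 in replicate 3 and 4.28 to 4.55 in the others. When YFP-positive replicate 3 was left out, 13 of the 38 fell. When YFP-negative replicate 1 was left out there was 1 call, and for any of the other 4 arrays there was 0 (10 to 11 at an unadjusted p under 0.05). Cdc25c, Prc1 and Cenpf each passed only when YFP-positive replicate 3 was the array left out, among these 6 fits (adjusted p up to 0.0741, 0.122 and 0.146 in the rest). The leukocyte and neutrophil marker levels were also highest in YFP-positive replicate 3 among YFP-positive arrays. Among YFP-negative arrays the summed neutrophil level was likewise highest in replicate 3 (14.5, against 12.5 and 13.1 in replicates 1 and 2). The part of these markers in the Foxm1 target values was not tested.

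The promoters of this list carry another motif. The cell cycle homology motif, searched as TTTGAA or TTCAAA on the other strand, was in 22 of 36 promoters of Foxm1 targets (61.1%), against 15.4% of all promoters of the genes tested. The forkhead motif was in 1 of the 36 (2.78%, against 3.15%). Of the genes that fell, Prc1 and Cenpf have a promoter sequence, and each holds the cell cycle motif. The Prc1 stretch, at chr7:80294431-80294451 on the plus strand of GRCm38.p6, is shown with it in capitals because it lies close to the transcription start, at -5 from one RefSeq start of Prc1 and at -30 from another.
Prc1: ccgcctctggctcggTTTGAA
No forkhead letters were found in the promoters of those genes, which says nothing of whether Foxm1 acts there.

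Of 22 measured partners of Foxm1, the MuvB and DREAM subunits and the cyclin-dependent kinases that activate it, 0 passed limma's test. An unadjusted p under 0.05 was found for 7 (1 higher, 6 lower), against 17.2% of all genes. The median difference of the 22 was -0.11, with 8 differences above 0 and 14 below. With trended and robust variance 0 passed. Tfdp1, the dimer partner of E2F proteins, measured 7.06, 7.25 and 8.09 in YFP-positive and 8.41, 8.90 and 8.73 in YFP-negative arrays (-1.21 ± 0.30, adjusted p = 0.0867), and passed when YFP-positive replicate 3 was left out (adjusted p = 0.0153), as did 2 of the 22 in all. Cdk4, a kinase of G1 phase, was at 7.37 to 7.64 against 7.98 to 9.54 (-1.25 ± 0.38, adjusted p = 0.157).

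Of 38 measured genes described as bound or regulated by Foxc, Foxf1 or Foxo1 in vessels, 17 rose, none fell and 21 did not pass. Among all genes tested 2.88% rose past the threshold. The median difference of the list was 0.96, against -0.01 over all genes. Kdr, the main endothelial VEGF receptor, was at 10.4, 10.4 and 10.1 in YFP-positive arrays and at 3.86, 3.60 and 3.43 in YFP-negative arrays, near the array medians. Aplnr, the apelin receptor, was at 8.55, 8.82 and 9.71 against 3.28, 3.45 and 3.67, likewise near the medians, so no fold is given for either. Flt4, the lymphatic and sinusoidal receptor related to Kdr, was at 9.59, 9.79 and 9.32 against 4.26, 4.16 and 4.23. The groups of these 3 genes lay far apart (limma adjusted p up to 0.000618). S1pr1 is on this list too. Many of its genes are endothelial markers as such, and the 24 endothelial markers measured had a median difference of 3.98. The forkhead motif was in 1 of the 29 promoters of this list (3.45%), near the share of all promoters.

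Of 23 measured partners and lymphoid targets of Foxp proteins, 1 rose, 2 fell and 20 did not pass, with a median difference of -0.09. The share past the threshold over all genes was 4.84%. Il7r and Cd79b, a chain of the B cell receptor complex, fell. Cd79b was at 3.30 to 3.49 in YFP-positive arrays, below the array medians, and at 5.04 to 5.60 in YFP-negative arrays (limma adjusted p = 0.0031). Hif1a, a hypoxia-inducible factor, rose 2.85-fold (adjusted p = 0.0126), but not when YFP-negative replicate 1 was left out (adjusted p = 0.0551). Of 13 measured B and T lymphocyte markers, Cd79b was the one past the threshold, while Pax5, the B cell identity factor, differed by -0.10 ± 0.17.

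**Figure D4:**
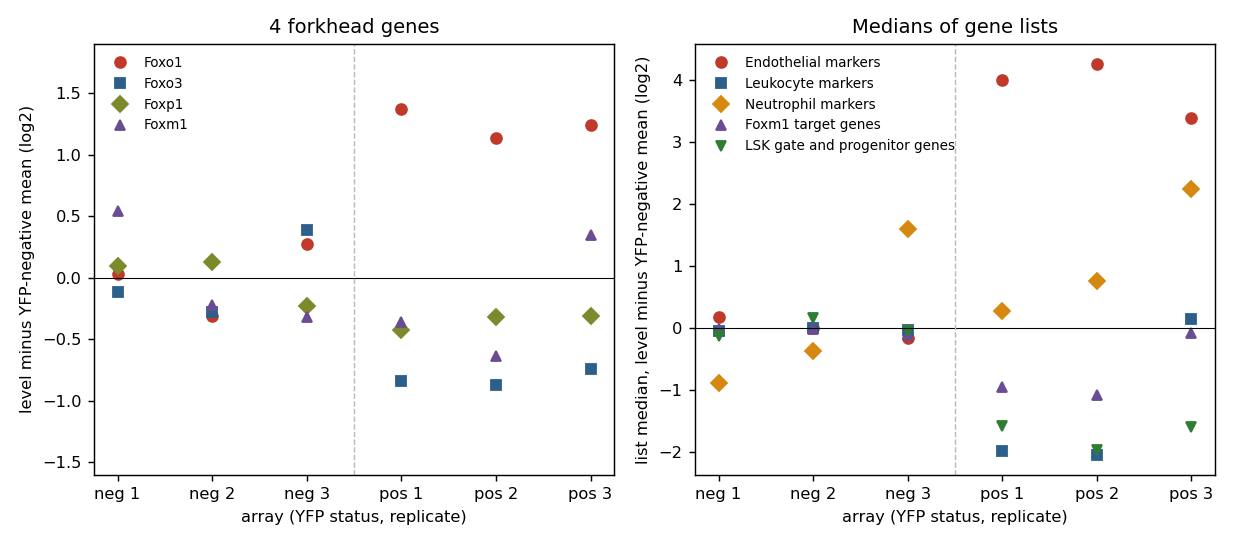
Values of each array minus the mean of the YFP-negative arrays (log2), for Foxo1, Foxo3, Foxp1 and Foxm1 (left) and for the medians of 5 gene lists (right). The Foxo1, Foxo3 and Foxp1 points of the 3 YFP-positive arrays lie close together, while the leukocyte and Foxm1 target medians of YFP-positive replicate 3 (0.14 and -0.08) lie apart from those of replicates 1 and 2.

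The brighter Foxo1 probe, the one used here, did not show that split of the YFP-positive arrays. The dimmer Foxo1 probe was highest in YFP-positive replicate 3 (5.60, against 4.93 and 5.01 in replicates 1 and 2). Relative to the mean of YFP-negative arrays, the leukocyte marker median was -1.98 and -2.05 in YFP-positive replicates 1 and 2 and 0.14 in replicate 3, while the endothelial median was 4.01, 4.27 and 3.40. By its brighter probe Foxo1 was 7.81 to 8.05 in the same arrays. Its difference was 1.25 (limma adjusted p = 0.0369) with YFP-positive replicate 3 left out. The part of leukocyte or endothelial RNA in the Foxo1 values was not tested. The 3 genes whose centred values over the 6 arrays were nearest to those of Foxo1 were Mtmr2, a phosphoinositide phosphatase (distance 0.15), Dchs1, a large cadherin (0.21), and Mgst1, a membrane glutathione transferase (0.29). Mtmr2 was 2.25-fold and Mgst1 2.31-fold higher in YFP-positive cells, and Dchs1 was at 4.95 to 5.15 against 3.36 to 3.86, near the array medians. Their likeness rests on 6 arrays that fall into 2 groups. Dchs1 passed whichever array was left out. Mtmr2 did not pass when replicate 1 or 2 of either group was left out (adjusted p up to 0.0858), nor Mgst1 when replicate 1 of either group or YFP-negative replicate 2 was (up to 0.0554).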

How the data were processed

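The authors deposited log2 expression levels of 41345 probes in 6 array columns. Partek is named, without a version, per the submitters' processing notes, but the normalization and background correction it applied stay unstated: not given in the sources used here. That the scale is log2 was read from the values. Of the probes, 23521 had 1 gene symbol, 1814 had several and 16010 were unnamed here. For a gene with several probes, the one of highest mean level was used, giving 22180 genes. Groups were compared with limma 3.58.1 in R 4.3.3 (lmFit and eBayes, two-sided, Benjamini-Hochberg adjustment over all genes, threshold 0.05), tested on simulated data. Differences are YFP-positive minus YFP-negative. No filter was used, and the number of arrays limits the precision. Sequences are from RefSeq (GRCm38.p6).

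The members and lists were chosen with earlier results of these data known. Names in the text follow a rule: all members, forkhead genes past the threshold and the 4 brightest others, from each pathway list the genes of smallest p (up to 2 a direction where both occur), the 3 genes nearest to each member past the threshold, the 2 brightest genes of each marker list, and Cdh5 and Ptprc. Sod2, Cat, Cdkn1a, Cdkn1b, Camk2n1, Kit, Mertk, the genes beside members, and the motif-bearing targets outside the rule were chosen after their values were seen. Symbols of 1 listed gene were updated through RefSeq synonyms. Alternatives were the mean of probes, a filter on dim genes, quantile normalization, the replicate number as a block, trended robust variance and leaving out each array. For Foxo1 and Foxj2, a fit of every probe on its own was added after the data were seen.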

Additional observations from a re-analysis of the deposited data

How the results depend on the processing

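Among 441 values of single genes under the alternatives, 362 kept their direction and side of the threshold, 66 lost the call, 2 gained it and 11 changed sign, none of the latter past the threshold. The signs turned for 1 or more arrays left out for 6 genes, whose differences then ran from -0.22 to 0.22 (Foxo4), -0.13 to 0.077 (Foxf1), -0.42 to 0.050 (Foxj3), -0.50 to 0.056 (Foxm1), -0.33 to 0.71 (Foxn3) and -0.15 to 0.13 (Foxi1). With the mean of all probes of a gene, 0 members and 0 forkhead genes passed limma's test (5 of each at an unadjusted p under 0.05). Leaving out 1 array gave 430 to 1185 genes past the threshold instead of 1074, 0 to 1 members, 0 to 2 forkhead genes, 1 to 2 Foxo regulators, 4 to 8 Foxo targets, 0 to 13 Foxm1 targets and 0 to 2 Foxm1 partners. The numbers of Foxc and Foxf genes and of Foxp genes moved by at most 1.5 times.

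The replicate numbers share no stated litter or day. Deviations of same-numbered arrays correlated at 0.10, 0.08 and 0.17 for numbers 1, 2 and 3. Those of unlike numbers correlated at -0.11 to 0.03, so each array correlated best with its own number. Whether the arrays are pairs cannot be told from this. As no pairing is stated, they were not taken as pairs, and the replicate block is an alternative. With the replicate block 580 genes passed (412 higher, 168 lower), 1 forkhead gene (Foxo1, adjusted p = 0.0404), 1 Foxm1 target and 1 Foxo regulator. The block ended the calls of Foxj2, Sgk1, Inpp5d, Xpo1, Atm, Camk2n1, Prc1, Cenpf, Hif1a and Mtmr2 (adjusted p = 0.0546, 0.0811, 0.0884, 0.116, 0.0656, 0.0681, 0.0865, 0.0668, 0.0554 and 0.0586), and of no other gene among those recomputed. Trended robust variance ended those of Xpo1 and Cenpf (adjusted p = 0.0947 and 0.068). The cause was not tested for any of these changes. Fewer arrays leave fewer degrees of freedom. Levels near the array medians, such as those of Foxc1 and Foxf1, limit what can be measured.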
